A study of Mus musculus with 6 samples.

Results

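The nuclear genes of respiratory complexes I and II were taken by name: every Nduf gene of the A, B, C, S, V, AB and AF series, the 4 Sdh subunit genes, and the Sdhaf genes. This gave 55 of 52326 named genes, of which 43 encode subunits and 12 encode assembly factors (Ndufaf and Sdhaf). Names were matched by pattern, and where a name repeated the record with the highest mean was kept. The group itself was chosen with earlier results of these data known. All 55 had 1 value per library, and 54 had a mean of at least 1 FPKM (fragments, or reads, scaled to gene length and library size) in both groups and were tested; the exception was Ndufa4l2.

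The libraries came from C2C12, an immortal line of mouse myoblasts whose cells stop dividing and fuse into multinucleate myotubes in low serum. There were 3 libraries labelled FHL3 KO and 3 labelled WT, all of C2C12 cells grown in 10% fetal bovine serum, moved to 2% horse serum and collected on day 4 of myogenic differentiation. FHL3 is a LIM-domain protein, and the study's title links it with the transcription factor YY1 and with glycolytic fibres. The labels do not say how the gene was disrupted, how many clones were used, or whether a group's 3 libraries are separate cultures; p-values therefore measure the spread between these libraries and a clone effect cannot be told apart from the genotype.

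Fhl3 RNA went against the label. It had 57.2, 53.5 and 58.9 FPKM in FHL3 KO-labelled libraries, against 27.8, 30.03 and 33.7 FPKM in WT, a log2 difference of 0.87 (limma adjusted p = 0.000547). RNA level alone does not show whether the protein was lost, so the libraries are called by their labels here, and each direction below is that of the label.

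The libraries within each group were spread across these genes. FHL3 KO replicate 2 was the lowest of its group in 37 of the 54 genes tested and WT replicate 1 the lowest of its group in 45, with median deviations of -0.13 and -0.16 from the group mean on the log2 scale. Over all genes of up to 1000 exon bases the same libraries deviated by -0.13 and -0.09, and over genes of more than 4000 bases by 0.09 and 0.09. At the other end, FHL3 KO replicate 3 was the highest of its group in 36 of the 54 genes and WT replicate 3 in 41. Their median deviations over the 54 genes were 0.10 and 0.15. Hepatocyte markers were at 0 in every library labelled FHL3 KO and reached 85.0 FPKM in WT replicate 1 (Alb 56.0 FPKM), a library in which 32 tested genes were above 1 FPKM and over 10 times their level in every other.

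Complex I oxidises NADH and passes the electrons along a flavin and a chain of iron-sulfur clusters to ubiquinone, while pumping protons. Complex II oxidises succinate in the citric acid cycle and passes its electrons to the same ubiquinone pool without pumping. Complex I is built from nuclear and mitochondrial genes in separately assembled modules (N, which takes NADH; Q, which reduces ubiquinone; and the membrane modules named after ND1, ND2, ND4 and ND5), whereas all 4 subunits of complex II are nuclear. Modules are given here as assigned in the mammalian enzyme.

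More subunit genes rose in the libraries labelled FHL3 KO than the background of all genes, and assembly factors named Ndufaf or Sdhaf did not. Of the 54 genes tested, 22 rose (40.7%), 1 fell (1.85%) and 31 passed in neither direction (limma, adjusted p of 0.05 over 12528 genes). Over all genes tested, 40.8% were called, with 19.7% rising and 21.2% falling; rises were 48.2% of all calls, or 36.1% with every library scaled to the same sum. The subunits held 20 of the 22 rises, which is 47.6% of the 42 subunits tested, and no subunit fell. The assembly factors had 2 rises among 12, or 16.7%, near the background, and 1 fall, whereas 5 of 11 complex I assembly factors of other names rose (45.5%). The median log2 difference was 0.37 for subunits and -0.07 for assembly factors, beside -0.01 for all genes. With trends by exon length and GC content taken out, these medians were 0.29, 0.07 and 0.01, and 20 subunits and 3 assembly factors rose. Assembly factors were also lower: the median of their means was 10.2 FPKM in FHL3 KO-labelled libraries, against 78.8 FPKM for subunits. The log2(FPKM + 1) scale understates changes of low genes. No test over the members was made. Without both FHL3 KO replicate 2 and WT replicate 1, the lowest of their groups in most of these genes, 26 genes rose and 2 fell. The falls there were 1 subunit and 1 assembly factor, and 19.5% of all genes rose. This alternative was chosen after the data were seen. Without WT replicate 1 alone 15 rose, beside 16.2% of all genes. Without WT replicate 2, FHL3 KO replicate 1 or FHL3 KO replicate 3 the count was 12, 12 and 14. Over all genes 12.8%, 14.6% and 16.2% rose in those fits. Libraries labelled FHL3 KO all lay above all WT libraries for 25 of the 54 genes (46.3%, against 26.9% of all genes) and all below for 2.

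**Figure D1:**
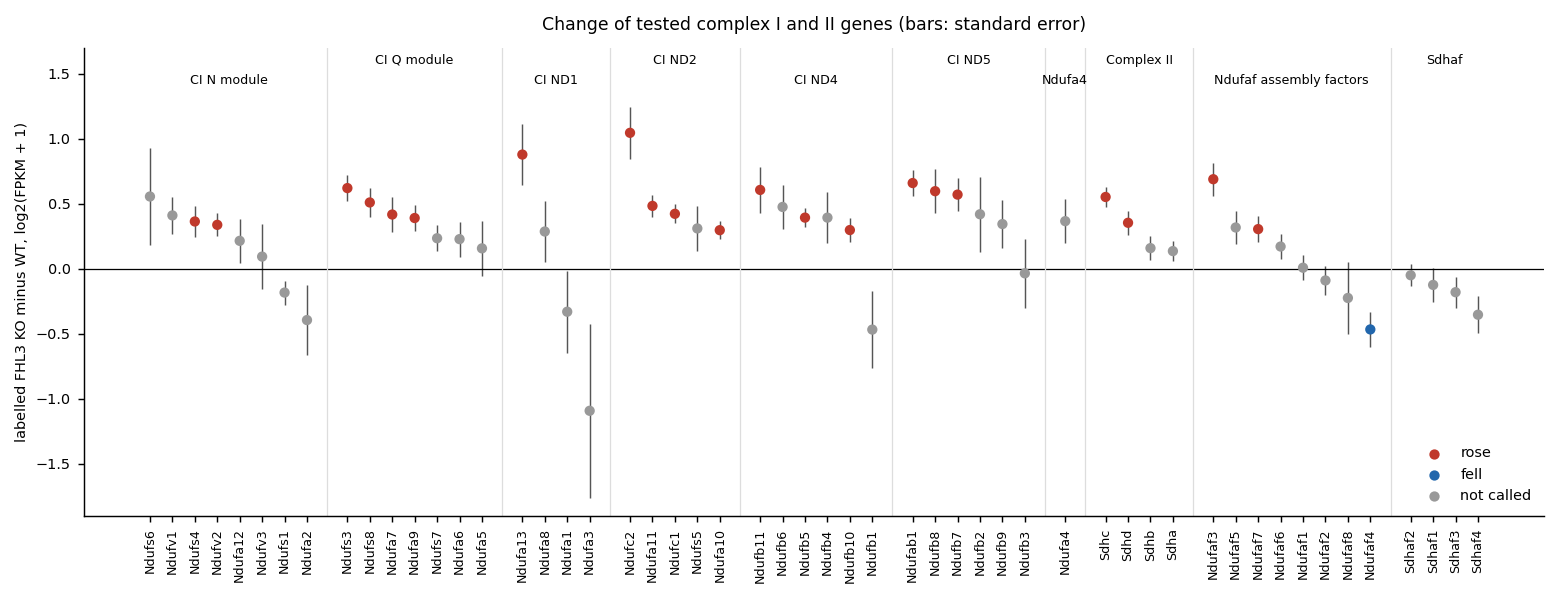
Log2 difference, labelled FHL3 KO minus WT, on the log2(FPKM + 1) scale for the tested genes reported here, by module or role; red points rose and the blue point fell by the limma test, grey points passed in neither direction, and bars are standard errors. Rises make up 4 of 5 ND2, 2 of 8 N and 1 of 4 ND1 subunits, beside 19.7% of all genes tested. The Sdhaf group has none, and Ndufaf4 is the one fall.

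Other measures moved with this count. All 10 myotube markers rose (median log2 difference 1.06), with summed levels of 16374 to 17613 FPKM in FHL3 KO-labelled libraries and 6789 to 8404 FPKM in WT. Fibroblast markers summed to 147.5 to 165.9 FPKM in FHL3 KO-labelled libraries and 435.1 to 497.7 FPKM in WT. Dcn, Postn and Col3a1 fell and make up most of this sum. Col1a1 rose, with 8.67 ± 1.1 FPKM in FHL3 KO-labelled libraries and 4.16 ± 0.059 FPKM in WT (log2 difference 0.90, limma adjusted p = 0.00108). Pdgfra did not pass, with means of 1.07 FPKM in FHL3 KO-labelled libraries and 1.36 FPKM in WT. Thy1 was at 0 in all 6. Lum was too low to be tested, at 0 in those labelled FHL3 KO and 0.076 FPKM on average in WT. Undifferentiated myoblast markers summed to 78.5 to 93.4 FPKM in FHL3 KO-labelled libraries and 108.9 to 140.3 FPKM in WT. Of these, Myf5, Mki67 and Top2a fell. Cdk1 and Ccna2 did not pass, with means of 25.4 and 25.2 FPKM in FHL3 KO-labelled libraries and 23.5 and 24.0 FPKM in WT. Pax7 was too low to be tested, with means of 0.99 FPKM in FHL3 KO-labelled libraries and 0.93 FPKM in WT. The part of these markers in the result was not tested, and in such bulk RNA fewer cells of a type and less RNA per cell cannot be told apart.

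The study's link to YY1 makes the promoters worth showing. RefSeq promoters (GRCm38.p6, 250 bases before to 50 after a start) were matched for 48 of the 55 genes and searched on both strands for AANATGGC, the core of the YY1 motif. The word was in 15 of the 48 promoters (31.2%), against 954 of 9058 tested genes with a promoter (10.5%) and 6.96% of all 27025. Among the 20 genes of this group that rose and had a promoter it was in 10, and among the 27 that passed in neither direction in 5. The share with the word among all tested genes that rose, or among all that did not pass, is not given here. This split of the members by call therefore has no background. These shares were compared after the calls were known, and a match of letters is not a site. Among those with no entry were Sdhc, Ndufs1, Ndufa2, Ndufa4l2, Ndufaf6 and Ndufb9. The stretches for the 10 genes that rose are shown 5′ to 3′ on the strand carrying AANATGGC, with the word in capitals and up to 8 flanking bases. Each line gives the position of the word's first base counted from the RefSeq start (negative before it), and the GRCm38 coordinates of the stretch.
Ndufb5, at -225 from the start (chr3:32736830-32736853, plus strand): ccttactaAACATGGCcgctccca
Ndufb5, at -73 from the start (chr3:32736982-32737005, plus strand): cctcactcAATATGGCctcctcta
Ndufb11, at -211 (chrX:20617815-20617838, minus strand): accaacacAAAATGGCgacgagaa
Ndufs8, at -165 (chr19:3912924-3912947, minus strand): tctgatacAACATGGCagctccct
Ndufa7, at -18 (chr17:33824619-33824642, plus strand): gcggaaggAATATGGCgtccgcta
Ndufc1, at 23 (chr3:51408918-51408941, minus strand): tgcggaacAAGATGGCgccgtccg
Ndufa9, at 30 (chr6:126849100-126849123, minus strand): tgtgggagAAGATGGCggccgccg
Ndufs4, at 36 (chr13:114388045-114388067, minus strand): cctacaggAAGATGGCggcggtc
Ndufb8, at 39 (chr19:44555393-44555412, minus strand): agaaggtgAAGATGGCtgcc
Ndufaf3, antisense, -77 to -70 (chr9:108567498-108567521, plus strand): ttctccttAAAATGGCtccaagtc
Ndufb10, antisense, -198 to -191 (chr17:24724606-24724629, plus strand): atatggtgAACATGGCttggaaga

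In 8 of the 15 genes with the word it lay in sense orientation after the start, as did 364 of the 954 tested genes with it (38.2%). These 8 all read AAGATGGC, and they include Ndufa3, Ndufs7, Ndufaf8 and Ndufs6, which passed in neither direction. Ndufb5 was the only one of the 15 to hold the word at 2 places in its window. The 250 bases before its start (chr3:32736813-32737062, plus strand, GRCm38) are shown with both words in capitals.
Ndufb5: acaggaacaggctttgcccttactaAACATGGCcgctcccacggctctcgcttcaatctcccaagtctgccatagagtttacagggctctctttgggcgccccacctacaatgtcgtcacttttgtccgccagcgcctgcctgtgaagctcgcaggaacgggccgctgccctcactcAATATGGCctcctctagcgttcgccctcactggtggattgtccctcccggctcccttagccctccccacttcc

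The word of NRF1, a known activator of respiratory genes, was searched in the same windows. It reads GCGCA and GCGC with any base between them, and it was in 13 of the 48 promoters (27.1%), against 12.3% of tested genes and 5.19% of all. It was in 2 of the 20 genes that rose, Sdhd and Ndufa11, and in 10 of the 27 that passed in neither direction. It was also in the promoter of Ndufaf4, the gene that fell. For this word too, no share by call over all tested genes is given. Ndufs6 was the only gene with both the YY1 and NRF1 words. The ETS word CCGGAAG was in 22.9% of the 48 promoters, against 21.4% of tested genes, and the ERR word AAGGTCA in 8.33%, against 3.78%.

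The Q module, where electrons reach ubiquinone, had 5 rises among 8 subunits (62.5%, median log2 difference 0.40). Over all genes tested 19.7% rose. Ndufs3, a core subunit (chr2:90894634-90904827, minus strand; coordinates are GRCm38 with GENCODE M21), had 96.8, 86.9 and 97.3 FPKM in FHL3 KO-labelled libraries, against 54.1, 61.1 and 66.8 FPKM in WT. Its groups did not overlap, and the log2 difference was 0.62 (SE 0.098, limma adjusted p = 0.00284). Ndufs8, which carries a pair of iron-sulfur clusters, had 122, 109 and 132 FPKM in FHL3 KO-labelled libraries, against 76.3, 82.7 and 95.1 FPKM in WT, also without overlap (log2 difference 0.51, adjusted p = 0.00948). Ndufs7, the core subunit with the last cluster before ubiquinone, averaged 157 ± 16 FPKM in FHL3 KO-labelled libraries and 133 ± 9.3 FPKM in WT (± SD, n = 3 each, here and below) and did not pass (log2 difference 0.24, adjusted p = 0.1). Of the accessory subunits, Ndufa9 averaged 78.0 ± 4.9 FPKM in FHL3 KO-labelled libraries and 59.4 ± 6.5 FPKM in WT (log2 difference 0.39, adjusted p = 0.0175) and Ndufa7 192 ± 28 FPKM in FHL3 KO-labelled libraries and 143 ± 18 FPKM in WT (adjusted p = 0.0441, with overlapping groups, rising in 8 of 16 alternative fits), and Ndufa5 and Ndufa6 did not pass (log2 differences 0.16 and 0.23). Ndufs3 shares 88 exon bases with Kbtbd4 on the other strand; the strand setting of the counting is not given, so such reads cannot be assigned.

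The N module, which oxidises NADH, had 2 rises among 8. Ndufv2, a core subunit with an iron-sulfur cluster, had 70.2, 73.3 and 69.1 FPKM in FHL3 KO-labelled libraries, against 50.5, 56.1 and 61.3 FPKM in WT. Its lowest library labelled FHL3 KO was above the highest WT library (log2 difference 0.34, limma adjusted p = 0.0195), and it rose in 11 of 16 alternative fits. Ndufv1, which holds the flavin and the NADH site, averaged 85.3 ± 11 FPKM in FHL3 KO-labelled libraries and 64.1 ± 11 FPKM in WT and did not pass (log2 difference 0.41, adjusted p = 0.0557). Ndufs1, the largest subunit with several iron-sulfur clusters, had 47.9, 50.1 and 44.1 FPKM in FHL3 KO-labelled libraries, against 59.3, 53.0 and 49.6 FPKM in WT. It was the one core subunit with a lower mean in the libraries labelled FHL3 KO, its groups overlapped, and it did not pass (log2 difference -0.18, adjusted p = 0.154). With trends by exon length and GC content taken out, its difference was 0.07. Ndufs4, an accessory subunit whose loss causes a Leigh-like disease in mice, had 39.2, 33.5 and 38.9 FPKM in FHL3 KO-labelled libraries, against 24.1, 30.6 and 31.7 FPKM in WT (adjusted p = 0.0457) and rose in 6 of 16 alternative fits. Ndufs6, Ndufa12, Ndufv3 and Ndufa2 did not pass, with log2 differences from -0.39 for Ndufa2 to 0.56 for Ndufs6. Reads of Ndufa12 and Ndufs6 may be divided with records named Ndufa12-ps and Ndufs6b. Of the 7 nuclear core subunits of complex I, 4 rose (57.1%), with a median log2 difference of 0.41. Of the 30 accessory subunits 14 rose (46.7%), with a median of 0.38.

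**Figure D2:**
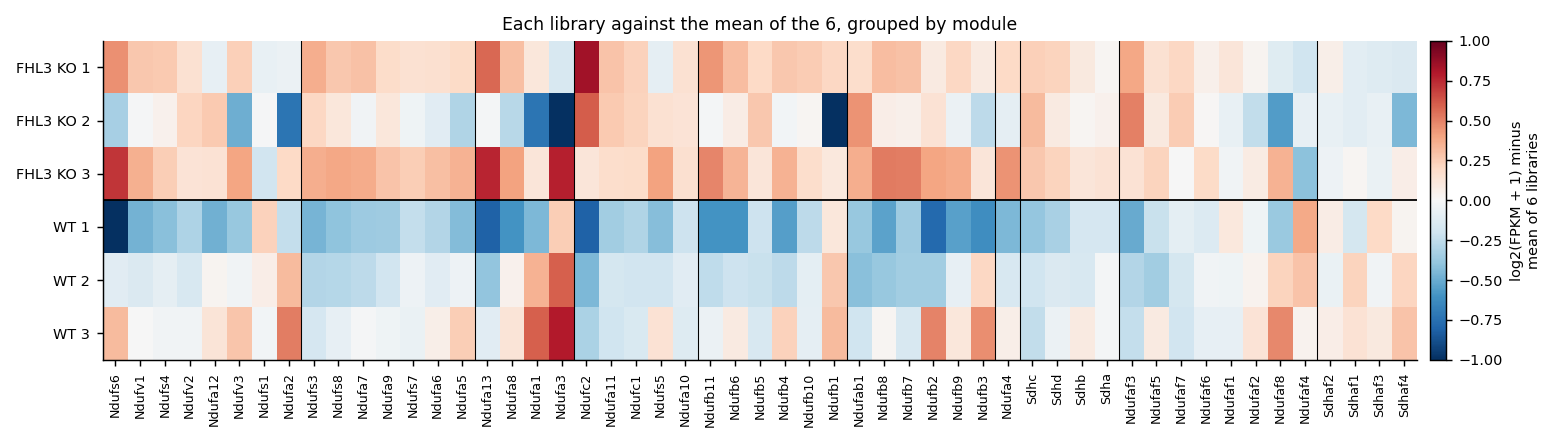
Each library's log2(FPKM + 1) minus the mean over all 6 libraries for the tested genes reported here (columns, grouped by module), with libraries labelled FHL3 KO in the rows above WT and red for higher. Subunits are mostly higher in the libraries labelled FHL3 KO, and FHL3 KO replicate 2 and WT replicate 1 are lower than the rest of their groups in 37 and 45 of all 54 genes tested.

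The ND2 module, part of the proton-pumping arm, had 4 rises among 5 nuclear subunits (80.0%, against 19.7% over all genes). Ndufc2 (chr7:97400003-97407802, plus strand) had the largest rise of all 54 genes, with 107, 90.7 and 64.6 FPKM in FHL3 KO-labelled libraries, against 33.5, 43.2 and 47.3 FPKM in WT. The groups did not overlap, and the log2 difference was 1.05 (SE 0.2, limma adjusted p = 0.00559). Ndufc1, which lies beside it in the enzyme, had 42.1, 42.0 and 40.8 FPKM in FHL3 KO-labelled libraries, against 28.9, 31.3 and 32.2 FPKM in WT (log2 difference 0.42, adjusted p = 0.0041). Ndufa11, which sits where the membrane modules meet, had 184, 181 and 170.3 FPKM in FHL3 KO-labelled libraries, against 118, 133 and 131 FPKM in WT (log2 difference 0.48, adjusted p = 0.00363). The spread within each group was small for both, and every library labelled FHL3 KO lay above every WT library. Ndufa10, an accessory subunit with a fold like a nucleoside kinase, had 64.5, 64.0 and 64.9 FPKM in FHL3 KO-labelled libraries, against 50.3, 53.7 and 52.9 FPKM in WT, a small difference without overlap (log2 0.30, adjusted p = 0.0119; a rise in 13 of 16 alternative fits). Ndufs5 did not pass (log2 difference 0.31, adjusted p = 0.185), while a record named Ndufs5-ps rose to 5.51 ± 1.3 FPKM in FHL3 KO-labelled libraries, against 2.45 ± 0.65 FPKM in WT, so the division of reads between them is uncertain.

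At the far end of the arm, the ND4 and ND5 modules each had 3 rises among 6. Ndufab1, the mitochondrial acyl carrier protein, which also serves fatty acid and iron-sulfur cluster synthesis, had 36.8, 44.7 and 41.9 FPKM in FHL3 KO-labelled libraries, against 24.7, 24.0 and 28.2 FPKM in WT. The groups were well apart (log2 difference 0.66, limma adjusted p = 0.00258); Ndufab1-ps, a record of similar name, averaged 13.7 ± 6.4 FPKM in FHL3 KO-labelled libraries and 15.2 ± 1.3 FPKM in WT, so their shared reads are uncertain. Ndufb5 had 93.3, 98.1 and 88.1 FPKM in FHL3 KO-labelled libraries, against 69.9, 69.4 and 72.4 FPKM in WT. All 3 libraries labelled FHL3 KO were above WT (log2 difference 0.39, adjusted p = 0.00538), and its exons share 616 bases with Mrpl47 on the other strand. Ndufb7, Ndufb8, Ndufb10 and Ndufb11 also rose, by 0.57, 0.60, 0.30 and 0.61 on the log2 scale (adjusted p of 0.0102, 0.0252, 0.0351 and 0.0297). Ndufb7 did so in all 16 alternative fits, Ndufb8 and Ndufb11 in 11 each, and Ndufb10 in 6. Ndufb1 had 23.4, 9.51 and 21.8 FPKM in FHL3 KO-labelled libraries, against 21.9, 24.5 and 25.4 FPKM in WT; FHL3 KO replicate 2 alone was far below the others, and the gene did not pass (adjusted p = 0.241; log2 difference -0.47, or -0.08 without that library). The other 5 subunits of these modules that did not pass were Ndufb2, Ndufb3, Ndufb4, Ndufb6 and Ndufb9, with log2 differences from -0.03 for Ndufb3 to 0.48 for Ndufb6.

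The ND1 module, at the junction of the arms, had 1 rise among 4, with a median log2 difference of -0.02. Ndufa13, also known as GRIM-19, had 86.2, 57.1 and 98.8 FPKM in FHL3 KO-labelled libraries, against 32.6, 43.6 and 53.2 FPKM in WT and rose (log2 difference 0.88, limma adjusted p = 0.0209). FHL3 KO replicate 2 was close to the highest WT library, and the gene rose in 11 of 16 alternative fits. Of its exon bases, 30.0% are shared with Tssk6 on the other strand, a gene under 1 FPKM in both groups. Ndufa3 had 18.2, 3.51 and 35.9 FPKM in FHL3 KO-labelled libraries, against 24.5, 31.6 and 36.2 FPKM in WT, with a log2 difference of -1.09 and an SE of 0.67. Its low mean rested on FHL3 KO replicate 2, without which the difference was -0.24, and it did not pass (adjusted p = 0.226). Ndufa1 and Ndufa8 did not pass either, with log2 differences of -0.33 and 0.29. Ndufa13 and Ndufb7 lie on chromosome 8, where 51.5% of 676 tested genes rose. With both left out, 20 of 52 members rose (38.5%). The share of all genes, with chromosome 8 included, was 19.7%.

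Both membrane anchor genes of complex II rose, and its catalytic genes did not pass. Sdhc, which with Sdhd holds the heme and the ubiquinone site (chr1:171127165-171150603, minus strand), had 52.3, 55.4 and 53.5 FPKM in FHL3 KO-labelled libraries, against 33.5, 38.4 and 37.2 FPKM in WT. The groups were separated by more than their spread, and Sdhc had the smallest p of all 54 genes (log2 difference 0.55, SE 0.08, limma adjusted p = 0.00195). Sdhd had 113, 103 and 113 FPKM in FHL3 KO-labelled libraries, against 77.0, 87.3 and 92.6 FPKM in WT (log2 difference 0.35, adjusted p = 0.0193), without overlap, and rose in 12 of 16 alternative fits. Sdha, the flavoprotein that binds succinate, had 62.6, 63.8 and 68.8 FPKM in FHL3 KO-labelled libraries, against 55.1, 61.2 and 61.0 FPKM in WT, and Sdhb, the iron-sulfur subunit, had 109, 103 and 111 FPKM in FHL3 KO-labelled libraries, against 90.4, 90.6 and 108 FPKM in WT. Neither passed (log2 difference 0.14 and 0.16, adjusted p = 0.206 and 0.207), although every library labelled FHL3 KO lay above every WT library for Sdha. The difference between the anchor and the catalytic subunits was not tested. Summed over the 4 genes, the level was 336.9, 324.9 and 345.8 FPKM in FHL3 KO-labelled libraries, against 256, 277.5 and 299 FPKM in WT.

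None of the 4 Sdhaf genes, which help assemble complex II, passed, and their median log2 difference was -0.15. Sdhaf4, which chaperones the flavinated Sdha, had 16.9, 13.4 and 19.6 FPKM in FHL3 KO-labelled libraries, against 19.1, 21.9 and 23.0 FPKM in WT; its mean was lower in the libraries labelled FHL3 KO (log2 difference -0.35, limma adjusted p = 0.0824), with overlapping groups. In 3 of 16 alternative fits Sdhaf4 fell, among them the fit with the length trend removed (limma adjusted p = 0.0141). Sdhaf2, which is needed to attach the flavin to Sdha, averaged 18.1 ± 0.97 FPKM in FHL3 KO-labelled libraries and 18.8 ± 1.1 FPKM in WT (log2 difference -0.05, adjusted p = 0.662). Sdhaf1 and Sdhaf3, which act on the iron-sulfur subunit, had log2 differences of -0.12 and -0.18 (adjusted p = 0.481 and 0.259). For Sdhaf1, Sdhaf2 and Sdhaf3 the sign of the difference turned under at least 1 other scaling or trend correction, so no direction is given.

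Among the complex I assembly factors, a known pair moved in opposite directions. Ndufaf3, which works with Ndufaf4 on the early Q module, had 8.95, 9.80 and 7.44 FPKM in FHL3 KO-labelled libraries, against 4.37, 5.23 and 5.45 FPKM in WT. It rose without overlap (log2 difference 0.69, SE 0.13, limma adjusted p = 0.00518), although its exons share 48 bases with Impdh2, which is on the other strand and averaged 35.7 FPKM in FHL3 KO-labelled libraries and 24.8 FPKM in WT. Ndufaf4 had 4.45, 4.90 and 3.70 FPKM in FHL3 KO-labelled libraries, against 7.13, 6.64 and 5.42 FPKM in WT, with all libraries labelled FHL3 KO below all WT libraries (log2 difference -0.47, adjusted p = 0.0278). This fall did not pass once trends by exon length and GC content were taken out (log2 difference -0.12, adjusted p = 0.277), and it held in 10 of 16 alternative fits. Ndufaf7, a mitochondrial methyltransferase, had 11.0, 11.4 and 9.36 FPKM in FHL3 KO-labelled libraries, against 8.73, 8.21 and 8.10 FPKM in WT (log2 difference 0.31, adjusted p = 0.0434) and rose in 6 of the 16. The remaining 5 Ndufaf genes did not pass, with log2 differences from -0.22 for Ndufaf8 to 0.32 for Ndufaf5.

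**Figure D3:**
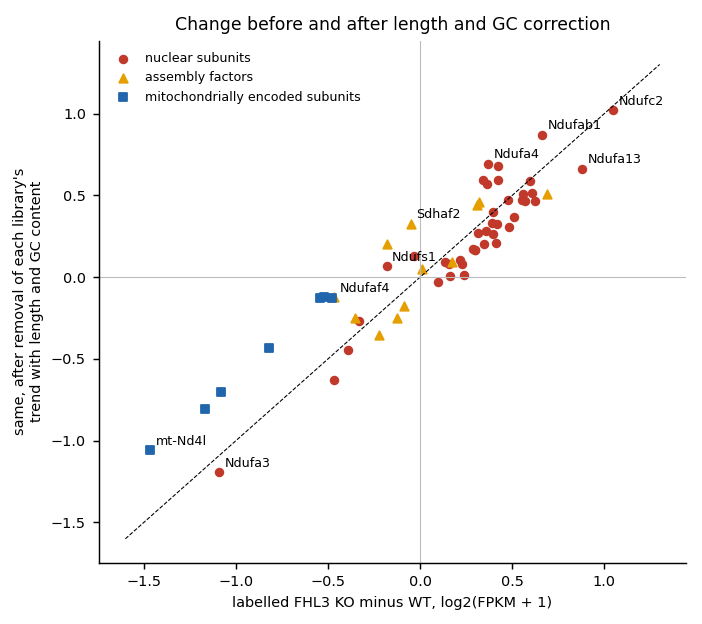
Log2 difference, labelled FHL3 KO minus WT, before (horizontal axis) and after (vertical axis) trends by exon length and GC content were taken out of each library, for the tested members reported here and the mitochondrially encoded subunits. Most subunits stay near the diagonal. Among those that move, Ndufaf4 goes from -0.47 to -0.12, Sdhaf2 from -0.05 to 0.33 and Ndufa4 from 0.37 to 0.69, while Ndufa13 goes down from 0.88 to 0.66.

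Levels differed far more between members than between groups. On the per-length FPKM scale, the lowest of the tested subunits was Ndufb1, with 18.2 FPKM on average in the libraries labelled FHL3 KO, and Ndufa4 averaged 245 FPKM there. Assembly factors ranged from 1.15 FPKM for Sdhaf3 to 18.1 FPKM for Sdhaf2 in the same libraries. Ndufa4, which bears a complex I name but is found in cytochrome oxidase, had 245, 200.4 and 291 FPKM in FHL3 KO-labelled libraries, against 156, 191 and 223 FPKM in WT and did not pass (log2 difference 0.37, limma adjusted p = 0.123), though it did with trends by exon length and GC content taken out (log2 difference 0.69, adjusted p = 0.0225). Its paralog Ndufa4l2, known as a hypoxia-induced gene, was at 0.594, 0.223 and 0.078 FPKM in FHL3 KO-labelled libraries and 0, 0.142 and 0.146 FPKM in WT. It made up 0.127% ± 0.11 of the pair's summed level in the libraries labelled FHL3 KO and 0.0467% ± 0.041 in WT (SD, n = 3 each), a difference with p = 0.4 by the two-sided exact permutation test, where the smallest p that 3 against 3 allows is 0.1.

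**Figure D4:**
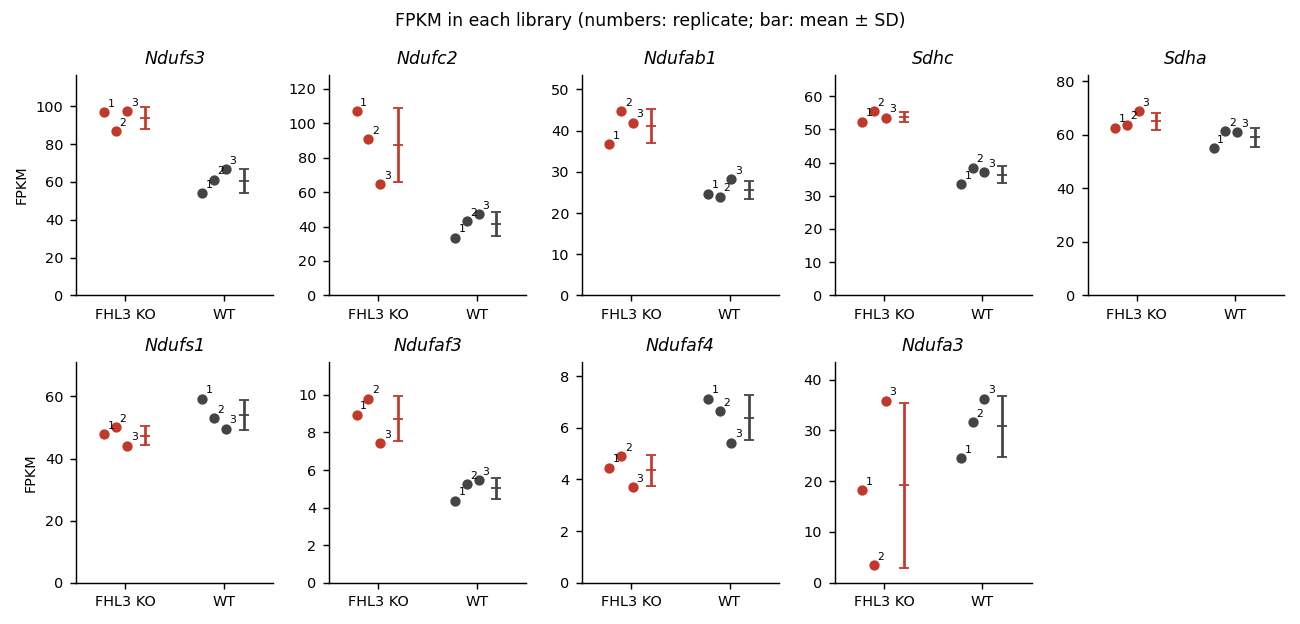
FPKM of 9 members in each library on linear axes from 0, with libraries labelled FHL3 KO left of WT; points are libraries numbered by replicate, and the bar beside them is the mean ± SD. Groups are apart for Ndufs3, Ndufc2, Ndufab1, Sdhc and Ndufaf3, with Ndufaf4 the other way round, while FHL3 KO replicate 2 (3.51 FPKM) stands far below the rest for Ndufa3.

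The 7 complex I subunits encoded in mitochondrial DNA went the other way. None rose and 6 fell (85.7%, against 21.2% over all genes), with a median log2 difference of -0.82. mt-Nd4l had 439, 628 and 370.5 FPKM in FHL3 KO-labelled libraries, against 1233, 1329 and 1317 FPKM in WT (log2 difference -1.47, limma adjusted p = 0.00117), and mt-Nd2 averaged 848 ± 225 FPKM in FHL3 KO-labelled libraries and 1756 ± 145 FPKM in WT (log2 difference -1.08, adjusted p = 0.0042). With trends by exon length and GC content taken out 3 of the 7 fell (mt-Nd4l, mt-Nd2 and mt-Nd4) and the median was -0.44; mt-Nd1, mt-Nd5 and mt-Nd6 no longer passed. Summed per library, nuclear complex I genes had 3408, 2912 and 3615 FPKM in FHL3 KO-labelled libraries, against 2153, 2594 and 2927 FPKM in WT, so FHL3 KO replicate 2 lay below WT replicate 3. The mitochondrial genes summed to 5604, 7543 and 4943 FPKM in FHL3 KO-labelled libraries, against 10414, 11596 and 11294 FPKM in WT. The mitochondrial sum over the nuclear sum was 1.64, 2.59 and 1.37 in the libraries labelled FHL3 KO, against 4.84, 4.47 and 3.86 in WT.

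**Figure D5:**
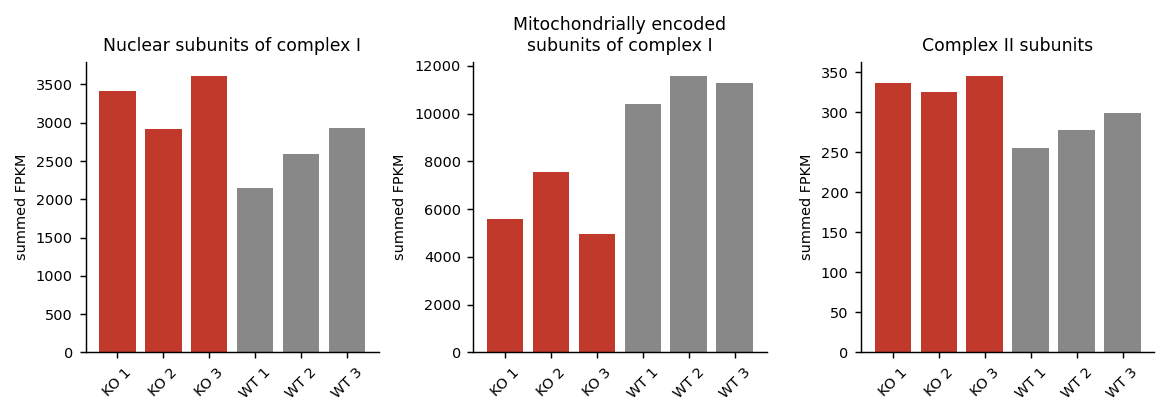
Summed FPKM per library of the nuclear complex I subunits, the mitochondrially encoded complex I subunits and the complex II subunits, as bars from 0, libraries labelled FHL3 KO left of WT. The mitochondrial sums do not overlap between groups, whereas the nuclear sum of FHL3 KO replicate 2 (2912) is below that of WT replicate 3 (2927).

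Other genes that serve these complexes moved in both directions, beside 19.7% rising and 21.2% falling over all genes. Of 11 complex I assembly factors without an Ndufaf name, 5 rose (Nubpl, Timmdc1, Dmac1, Ecsit and Aifm1) and 1 fell. Dmac1, which helps build the distal membrane arm, rose, with 41.9 ± 2.2 FPKM in FHL3 KO-labelled libraries and 30.3 ± 3.4 FPKM in WT (log2 difference 0.46, limma adjusted p = 0.01). Tmem126b, of the intermediate assembly complex, fell, with 6.09 ± 0.28 FPKM in FHL3 KO-labelled libraries and 8.73 ± 0.057 FPKM in WT (log2 difference -0.46, adjusted p = 0.00548), but with length and GC trends taken out its difference was -0.09 (adjusted p = 0.47). Of 14 iron-sulfur cluster genes, 4 rose and 1 fell: Isca1 rose by 0.44 and Hscb fell by 0.34 on the log2 scale (adjusted p = 0.00348 and 0.0205). The fall of Hscb did not pass in 6 of its 17 alternatives. Of 10 ubiquinone synthesis genes, 3 rose and none fell, among them Coq9 on chromosome 8 (log2 difference 0.61, adjusted p = 0.0015) and the kinase-like Coq8a (log2 difference 0.53, adjusted p = 0.0061). Of 4 other dehydrogenases that feed ubiquinone, Dhodh of pyrimidine synthesis, also on chromosome 8, rose by 0.77 and Sqor of sulfide oxidation fell by 0.35 (adjusted p = 0.00945 and 0.016).

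In every one of the 16 alternative fits 11 genes rose, among them Sdhc, Ndufab1, Ndufs3, Ndufa11, Ndufc1, Ndufb5, Ndufc2, Ndufs8, Ndufb7 and Ndufaf3. By length, 2 of the 11 members of up to 1000 bases rose and 20 of the 43 longer ones, or 18.2% and 46.5%. Over all genes, 15.5% rose up to 1000 bases, 27.7% between 1000 and 2000, 27.0% between 2000 and 4000, and 14.6% above 4000.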

How the data were processed

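RNA-seq of 6 C2C12 libraries was used, 3 labelled FHL3 KO and 3 labelled WT, all from day 4 of differentiation. Trizol was used to extract total RNA, genomic DNA was removed, and amplified RNA went into the libraries, per the labels' protocols. Per the submitters' processing notes, the tools were HISAT2 2.2.1, DESeq2 1.28.1, featureCounts 2.0.1 and Trim Galore 0.6.6, in no stated order, on mm10. Not given in the sources used here were the annotation, the strand setting and how reads common to several genes were treated.

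The deposited table holds a decimal value for each gene in each library, taken to be FPKM computed by the authors. That unit was inferred from the values, since per the file headers only gene and sample names are known. Columns sum to 483107, 477577 and 494176 in the libraries labelled FHL3 KO and to 424987, 451657 and 473369 in WT. No counts are held, so no counting intervals can be had and depth is unknown. A test for normalized values therefore replaced the count test.

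Of 55420 rows, 7 that shared 3 repeated IDs were left out. Genes stayed in if either group averaged 1 FPKM or more. Limma 3.58.1 (R 4.3.3) was run on log2(FPKM + 1) (mean-variance trend, two-sided, no covariates) over 12528 genes, adjusted by Benjamini-Hochberg, at a threshold of 0.05. Differences are labelled FHL3 KO minus WT on the log2(FPKM + 1) scale, which understates changes of low genes. The fitting script was tested on simulated data. IDs were matched to GENCODE M21 (94.1% of rows, all 55 members), and promoters came from RefSeq (GRCm38.p6). Ndufa4l2 was compared as its share of the pair, by exact permutation.

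The members and gene lists were chosen with earlier results of these data known. Named genes were Fhl3, the 8 rises with the smallest p and every fall, all complex II genes, the 7 core subunits, Ndufa4, Ndufa4l2, every called assembly factor and the top 2 of each other list. Members named beyond these, and the motifs, were chosen after values were seen. Alternatives were another pseudocount, no filter or a filter at 5 FPKM, quantile, same-sum and median-of-ratios scaling, removal of trends with exon length and GC content, the replicate block, a threshold of 0.01 and leaving out libraries. 1 member that enters the counts is not reported here.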

Additional observations from a re-analysis of the deposited data

How the results depend on the processing

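Of the 54 genes tested, 22 rose; 10 rose at an adjusted p of 0.01, 12 to 25 when 1 library was left out, and 15 to 26 in the other alternatives. Subunits that rose numbered 20, and 9 at an adjusted p of 0.01, with 11 to 24 when 1 library was left out. Assembly factors that rose numbered 2, and 1 without a filter, with the same sum per library, with the length trend removed, with the replicate block, without FHL3 KO replicate 2 and WT replicate 1 together, and at 0.01, but 3 with length and GC trends removed; leaving out 1 library gave 1 to 2. The 1 fall became 0 without a filter, with length and GC trends removed and at 0.01, and 2 with the same sum, with the length trend removed and without both libraries; leaving out 1 library gave 0 to 1. Over all genes, rises numbered 2462, and 1605 without WT replicate 2. The median log2 difference of the members was 0.19 to 0.41 over the fits. Among the genes named by rule, signs turned for Ndufs1 with length and GC trends removed (0.068) and Sdhaf1 with quantile normalization (0.055). They turned for Sdhaf2 with the length trend removed (0.10), with both trends removed (0.33) and without both libraries (0.0021). For Sdhaf3 the sign turned with both trends removed (0.20). Among other members, signs turned in at least 1 fit for Ndufa12, Ndufa5, Ndufv3, Ndufb3, Ndufaf1 and Ndufaf2. With 1 FPKM added to each gene the Ndufa4l2 share differed by -0.0396 percentage points (exact permutation p = 0.9). The cause was not tested in these cases.

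The replicate numbers share no stated origin. Deviations of same-numbered libraries correlated at -0.127, -0.063 and 0.316 for numbers 1 to 3, so the numbers were not taken as pairs; FHL3 KO replicate 2 correlated best with WT replicate 1 (0.368). The fit with the replicate block gave 22 rises and 1 fall among members, with 21 subunits and 1 assembly factor rising. Absolute depth is unknown, so the precision of low genes such as Ndufa4l2 and Sdhaf3 cannot be given.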

Other observations

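Records named as copies of members had their own levels, on the per-length FPKM scale. Ndufa12-ps averaged 151.5 ± 26 FPKM in the libraries labelled FHL3 KO and 132.7 ± 18 FPKM in WT (SD, n = 3 each), so the values of Ndufa12 itself depend on how reads were divided. Ndufb4c averaged 11.9 ± 5.9 FPKM in the libraries labelled FHL3 KO and 20.4 ± 5.7 FPKM in WT. Of the members with neither such a copy nor an exon shared with any other annotated gene, 12 of 29 rose (41.4%) and 1 fell. Their median log2 difference was 0.30, and over all genes tested 19.7% rose and 21.2% fell.

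Across the 54 genes tested, the log2 difference had a Spearman rho of 0.45 with mean level, 0.08 with exon length and 0.17 with GC content. These are descriptions across genes of the same 6 libraries, which are not independent replicates.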
